A study of Mus musculus with 21 samples.

Results

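The S100 genes described here are 10 members of the mouse S100 family, small calcium-binding proteins: S100a3, S100a4, S100a6, S100a7a, S100a8, S100a9, S100a10, S100a11, S100a14 and S100a16. They were chosen by symbol, with results of these libraries already known, to cover the family around S100a3 and the alarmins S100a8 and S100a9, and they are 10 of the 55491 genes listed in each count table. The differences of these genes between lesional skin and other skin are therefore given as a description, as values, differences and standard errors without p-values, and nothing is read from the number of them called.

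S100 proteins carry a pair of EF-hand motifs that bind calcium, and most act as dimers that change shape and bind a partner when calcium rises. In skin, S100A8 and S100A9 form calprotectin, a metal-binding antimicrobial complex and alarmin made by neutrophils, monocytes and stressed keratinocytes, and S100A7 is induced in inflamed epidermis. S100A3 is a protein of the hair cuticle whose arginines are converted to citrulline by peptidylarginine deiminases, and fused-type relatives such as filaggrin and trichohyalin build the cornified layer and the inner root sheath of the hair.

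The study measured polyadenylated RNA in a mouse model of cutaneous lupus in which an Ifnk transgene, encoding the type I interferon IFN-κ, is driven in the epidermis by the Krt14 promoter. The transgenic (TG) line was made on C57BL/6 with a PiggyBac vector and backcrossed to BALB/c, and the wild-type (WT) controls were BALB/c mice. Skin was taken at 12 months of age from WT mice (3 libraries), from nonlesional skin of TG mice (2 libraries) and from lesional skin of TG mice (4 libraries). Inguinal lymph nodes, which drain the skin, came from untreated WT and TG mice and from WT and TG mice shaved on the back and irradiated with UVB (3 libraries each). The UVB dose was 250 mJ/cm2 on 3 days per week for 2 weeks, and nodes were taken after 2 more weeks of observation. The labels give no age for the node libraries and no sex, mouse or body site for any library. The study describes nonlesional skin as taken from the back and from areas comparable to the lesions, which occurred on the face, the back and sometimes the extremities, so body site and lesion cannot be told apart here. All 21 libraries carry the same batch label, 1.

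Each skin library held 40499078 to 56511276 estimated counts (median 43994849), and each node library 27599809 to 36428435 (median 33305527). Levels are given as CPM, counts scaled to the same library total, after normalisation for library composition, and levels of different genes are compared only as CPM per kilobase of annotated exon length. A gene with 3 counts, the limit that a count of 0 allows, would be 5.31e-06% to 7.41e-06% of the counts in skin and 8.24e-06% to 1.09e-05% in nodes, and this floor covers counting error only. Skin libraries carried the epidermal keratins of their label, with the 6 basal keratinocyte genes summing to 3918 to 10386 CPM. In the nodes, 6 of 7 epidermal genes (Krt5, Krt14, Krt1, Krt15, Krt77 and Lor) had at most 3 counts in every library, while the 8 T cell genes summed to 2429 to 3191 CPM and the 7 B cell genes to 1430 to 2740 CPM. The p-values given for tests measure only the spread between these samples.

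Some libraries stood apart from the others of their tissue. TG node replicate 11, taken after UVB, had 187 genes with at least 30 counts that had no more than 3 counts in each of the other 11 node libraries, where every other node library had 0 or 1 such gene. Among them, picked after their values were seen, were the kidney genes Kap (11568 counts), Umod (2517), Cltrn (2508) and Miox (2234), and S100g, a calcium-binding S100 gene of kidney and gut, had 88 counts there and 0 in the other node libraries. Untreated TG node replicate 5 had the highest S100a4 level of the nodes together with a summed level of 8 lymph node stroma genes of 214 CPM, against 83.1 to 109 CPM in the other untreated nodes. In skin, lesional replicate 4 had the highest S100a8 and S100a9 levels, and its effect on these 2 genes is shown by giving their differences with and without it.

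All 10 genes lie on chromosome 3 (GRCm38, GENCODE gene models). A first block of 169 kb, chr3:90526856-90695721, holds S100a14, S100a16, S100a3, S100a4, S100a6, S100a7a, S100a8 and S100a9 in that order, with S100a9 alone on the minus strand. A second block of 44.2 kb, chr3:93520488-93564643, holds S100a11 and S100a10, 2825 kb further on. The S100a3 model, chr3:90560578-90602702, is long for the family at 42125 bases and overlaps S100a2 and the predicted gene Gm42674 on the same strand, so reads in the shared part could be divided between models. Neither S100a2 nor Gm42674 passed the filter on low counts, and S100a2 had between 0 and 7 counts in the skin libraries.

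Promoters were available in RefSeq (GRCm38.p6) for 8 of the 10 genes, 12 sequences in all, each running from 250 bases before a start site to 50 after it. S100a10 and S100a14 had no entry. The sequences below are from the genes that differed most in lesional skin and are shown so that their start sites can be set side by side. Capitals mark matches, on either strand, to 4 motifs that were searched: AP-1 (TGANTCA, in 7.81% of 32851 promoters of the same length), C/EBP (TTGCNNAA, in 10.8%), an interferon response element (GAAANNGAA, in 8.56%) and the TATA box (TATAAA, in 13.6%). No matches overlapped in these sequences. The S100a3 sequence is 1 of its 4 promoters, chr3:90588313-90588612 on the plus strand, and the only one of the 4 with a match; S100a7a is chr3:90654052-90654351 (plus), S100a8 is chr3:90668821-90669120 (plus) and S100a9 is chr3:90695672-90695971 (minus).
S100a3: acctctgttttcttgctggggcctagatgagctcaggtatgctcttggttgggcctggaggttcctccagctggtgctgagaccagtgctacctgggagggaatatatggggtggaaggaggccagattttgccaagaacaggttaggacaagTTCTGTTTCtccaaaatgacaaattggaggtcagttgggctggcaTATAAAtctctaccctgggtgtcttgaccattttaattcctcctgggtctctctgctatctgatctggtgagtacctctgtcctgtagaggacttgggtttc
S100a7a: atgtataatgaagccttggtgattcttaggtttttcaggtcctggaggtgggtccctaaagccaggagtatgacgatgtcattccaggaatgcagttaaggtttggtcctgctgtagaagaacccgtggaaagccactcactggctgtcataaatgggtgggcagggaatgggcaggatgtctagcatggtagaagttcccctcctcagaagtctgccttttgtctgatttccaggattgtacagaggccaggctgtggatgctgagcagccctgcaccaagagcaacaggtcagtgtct
S100a8: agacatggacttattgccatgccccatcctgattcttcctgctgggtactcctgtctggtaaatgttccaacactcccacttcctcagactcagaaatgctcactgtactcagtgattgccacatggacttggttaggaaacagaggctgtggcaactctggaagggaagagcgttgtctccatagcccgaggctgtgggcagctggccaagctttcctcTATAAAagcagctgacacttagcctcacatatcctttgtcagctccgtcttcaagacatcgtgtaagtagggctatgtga
S100a9: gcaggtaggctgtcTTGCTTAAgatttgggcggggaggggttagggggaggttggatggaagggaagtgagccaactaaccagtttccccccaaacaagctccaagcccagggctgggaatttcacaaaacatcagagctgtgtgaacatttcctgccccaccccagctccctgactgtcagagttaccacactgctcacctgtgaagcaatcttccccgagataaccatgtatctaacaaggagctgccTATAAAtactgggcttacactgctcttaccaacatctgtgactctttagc
S100a3, S100a8 and S100a9 each held a TATA box match, as S100a4 did, with its nearest base 47 and 25 bases before the start site in S100a3 and S100a8 and at the start site in S100a9. S100a3 also held an interferon response element match, read on the minus strand, S100a9 held a C/EBP match, and S100a7a held none of the 4 motifs in this window. A match describes the letters alone, and no binding was measured in these libraries.

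S100a3 was nearly silent in WT skin and abundant in lesional skin. Its counts were 27, 24 and 20 in the WT libraries and 66 and 56 in the nonlesional TG libraries, against 34960, 38292, 40055 and 66870 in lesional replicates 4, 5, 6 and 7. On the CPM scale this was 0.616, 0.570 and 0.495 in WT, 1.26 and 1.37 in nonlesional TG, and 637, 945, 883 and 1205 in lesional skin. Every lesional library lay far above every other skin library. The group means were 0.560 ± 0.0612 CPM (SD, n = 3) in WT, 1.32 ± 0.0792 (n = 2) in nonlesional and 917 ± 233 (n = 4) in lesional skin, so the lesional mean was 1638-fold above WT and 696-fold above nonlesional skin. The fitted log2 differences were 10.67 (SE 0.32) against WT and 9.44 (SE 0.37) against nonlesional TG skin, and these comparisons share the lesional libraries. These are bulk samples, in which more cells of a type and more RNA per cell cannot be told apart.

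S100a7a, the mouse relative of human psoriasin, had the next largest difference. Each of the 3 WT libraries held 6 counts and the nonlesional libraries 15 and 3, while lesional replicates 4 to 7 held 1539, 2293, 893 and 1717. In CPM the lesional libraries ranged from 19.7 to 56.6 (mean 33.8 ± 15.9, n = 4), against 0.143 ± 0.00577 (n = 3) in WT. The lesional mean was 237-fold above WT, with a fitted log2 difference of 7.86 (SE 0.57) against WT and 7.46 (SE 0.66) against nonlesional skin. The value against nonlesional skin was 6.88 without nonlesional replicate 3 and 8.79 without nonlesional replicate 2. The rank of the lesional libraries was not that of S100a3: replicate 5 was highest for S100a7a and replicate 7 for S100a3.

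The alarmins S100a8 and S100a9, the subunits of calprotectin, were higher in lesional skin with a wide spread between lesions. S100a8 measured 10.3, 10.5 and 4.30 CPM in WT, 5.81 and 5.94 CPM in nonlesional TG skin, and 178, 56.8, 28.2 and 20.3 CPM in lesional replicates 4, 5, 6 and 7. S100a9 measured 1.55, 3.23 and 1.95 CPM in WT, 3.52 and 2.16 CPM in nonlesional TG skin, and 329, 72.1, 30.8 and 26.2 CPM in the same lesional libraries. For both genes every lesional library lay above every other skin library, and replicate 4 lay far above the other 3 lesions. The log2 difference of S100a8 was 3.09 (SE 0.81) against WT and 3.59 (SE 1.00) against nonlesional skin, and that of S100a9 was 5.67 (SE 1.11) and 5.33 (SE 1.31). Without lesional replicate 4 these values were 2.07 and 2.58 for S100a8 and 4.26 and 3.92 for S100a9, so both genes still lay higher in the other 3 lesions.

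The ratio of the calprotectin subunits also differed between groups. Per kilobase, S100a9 stood at 0.201, 0.410 and 0.604 of the S100a8 level in the WT libraries and at 0.805 and 0.483 in the nonlesional libraries. In lesional replicates 4, 5, 6 and 7 it stood at 2.45, 1.69, 1.45 and 1.72. S100a8 was thus the more abundant subunit RNA in each nonlesional and WT library and S100a9 in each lesion. S100a3 and the alarmins were highest in different lesions: replicate 4 had the most S100a8 and S100a9 and the least S100a3, and replicate 7 had the most S100a3 and the least S100a8 and S100a9.

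**Figure D1:**
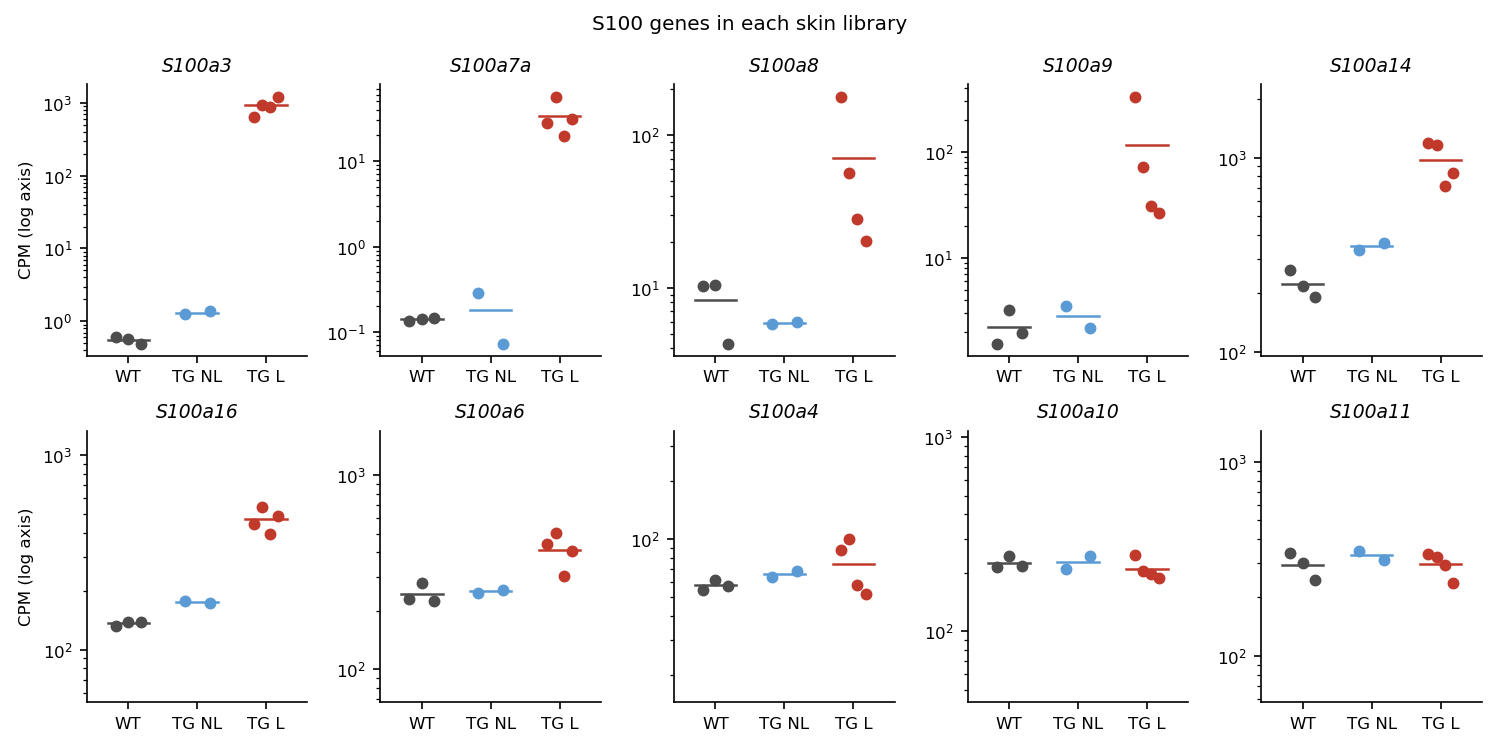
CPM (log axis) of the 10 S100 genes in each skin library, with WT (3 libraries), TG nonlesional (TG NL, 2) and TG lesional (TG L, 4) on the horizontal axis; points are libraries and lines are group means. S100a3 sits between 637 and 1205 CPM in lesional skin and at or below 1.37 CPM elsewhere, while S100a10 and S100a11 overlap between the groups.

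The epithelial members S100a14 and S100a16 were abundant in all skin and differed by a smaller factor. S100a14 measured 262, 217 and 191 CPM in WT, 335 and 365 CPM in nonlesional TG skin, and 1188, 1168, 712 and 836 CPM in lesional replicates 4 to 7. S100a16 measured 132, 139 and 139 CPM in WT, 178 and 174 CPM in nonlesional TG skin, and 446, 542, 396 and 490 CPM in the lesions. In both genes the 3 groups were fully separated, with nonlesional skin between WT and lesional skin. Against WT the log2 difference in lesional skin was 2.13 (SE 0.22) for S100a14 and 1.78 (SE 0.13) for S100a16, and against nonlesional skin 1.48 (SE 0.25) and 1.41 (SE 0.15).

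Among the widely expressed members, S100a6 (calcyclin) was modestly higher in lesions and the others overlapped between lesional and WT skin. S100a6 ranged from 226 to 278 CPM in WT, measured 248 and 255 CPM in nonlesional TG skin and ranged from 301 to 505 CPM in lesional skin, a log2 difference of 0.76 (SE 0.18) against WT and 0.72 (SE 0.20) against nonlesional skin. S100a4, a gene of fibroblasts and leukocytes, ranged from 54.5 to 61.3 CPM in WT and from 52.1 to 99.5 CPM in lesions, with replicates 4 and 5 above and replicate 7 below the WT range and a log2 difference of 0.36 (SE 0.22). S100a10, the partner of annexin A2, ranged from 215 to 243 CPM in WT and from 188 to 246 CPM in lesions. S100a11, which binds annexin A1, ranged from 247 to 339 CPM in WT and from 238 to 334 CPM in lesions. Their log2 differences against WT were -0.11 (SE 0.12) and 0.01 (SE 0.16), smaller than their standard errors.

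In edgeR's quasi-likelihood test, with Benjamini-Hochberg adjustment over the 19101 genes tested in skin, 7 of the 10 S100 genes were called higher in lesional than in WT skin and the other 3, S100a4, S100a10 and S100a11, were called in neither direction. Of all genes tested, 23.0% were called higher and 20.2% lower in that comparison. S100a8 lost its call there without WT replicate 10 and with no filter on low counts. Against nonlesional TG skin the same 7 were called higher, where 13.2% of all genes were called higher and 11.8% lower. That number was 3 without nonlesional replicate 2, 4 without replicate 3 and 4 with the compared groups fitted alone, and S100a6, S100a8 and S100a9 lost their calls in each of these. Since the genes were chosen with these contrasts known, nothing is read from the counts. The median log2 difference of the 10 was 1.95 against WT and 1.45 against nonlesional skin, and over all genes it was 0.06 and 0.03. The shares called over all genes apply equally to the counts of called genes in the skin lists below. Those lists were also chosen with earlier results of these data known, so their tests in lesional skin are given as a description.

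**Figure D2:**
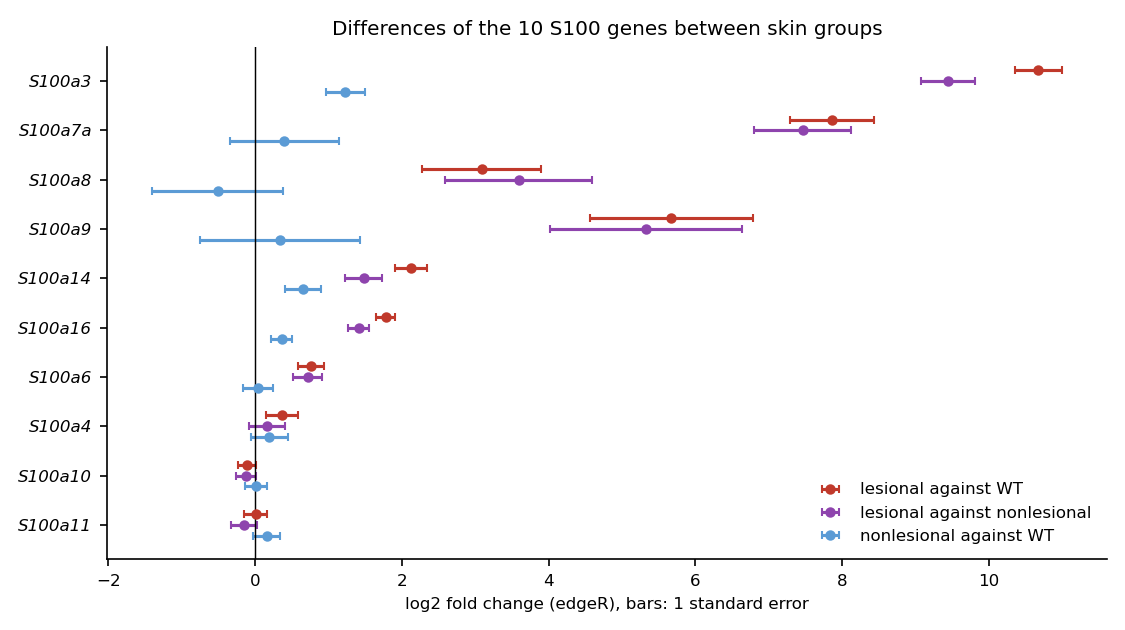
Log2 fold change (horizontal axis, edgeR) of each of the 10 S100 genes for lesional against WT, lesional against nonlesional TG and nonlesional TG against WT skin; points are fitted values and bars are 1 standard error. The differences in lesional skin run from -0.15 for S100a11 to 10.67 for S100a3, and the wide bars of S100a8 and S100a9 go with the spread between lesions.

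The order of the S100 levels, per kilobase, differed between WT and lesional skin. In WT skin S100a11 led at 578 ± 90.4 CPM per kb, followed by S100a10 (186), S100a6 (179), S100a14 (129), S100a4 (98.9) and S100a16 (84.5), then S100a8 (12.0), S100a9 (4.30), S100a7a (0.104) and S100a3 (0.0990). Neighbours in this order were separated except S100a10 and S100a6, and S100a7a and S100a3, whose libraries overlapped. In lesional skin S100a11 (582 ± 84.6 CPM per kb) and S100a14 (565 ± 138) overlapped at the top, followed by S100a6 (303), S100a16 (290), S100a9 (219 ± 277), S100a10 (172), S100a3 (162), S100a4 (127), S100a8 (102 ± 106) and S100a7a (24.5). Of neighbours in the lesional order only S100a14 and S100a6 were separated, and from S100a6 down each gene overlapped the next. The place of S100a3 depends on its annotated exon length of 5660 bases, the longest of the 10. In nonlesional TG skin S100a11 (645 CPM per kb) again led, and S100a3 (0.233) and S100a7a (0.131) were again the lowest. Summed over the 10 genes, the level was 1083 to 1254 CPM in WT, 1396 and 1426 CPM in nonlesional and 2920 to 3971 CPM in lesional skin.

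Nonlesional TG skin was compared with WT skin to ask what the transgene does in skin without a lesion, and in this comparison no S100 gene was called. By edgeR 0 of 19101 genes were called (0%), with 1465 genes at an unadjusted p under 0.05 and 80 genes called by DESeq2. Of the 10 S100 genes 0 were called by either tool and 3 had an unadjusted p under 0.05. These 3 were S100a3, which had the largest difference of the 10 at log2 1.23 (SE 0.26, adjusted p = 0.479 by edgeR), S100a14 at 0.65 (SE 0.24, adjusted p = 0.605) and S100a16 at 0.37 (SE 0.14, adjusted p = 0.624). Both nonlesional libraries lay above all 3 WT libraries for 4 of the 10 genes, S100a3, S100a4, S100a14 and S100a16, and this separation held for 18.6% of all genes tested. S100a8 (log2 -0.51, SE 0.89) and S100a9 (0.34, SE 1.09) overlapped between the 2 groups.

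The genes whose skin profile was most like that of S100a3 included genes of the hair shaft and root sheath. Likeness was measured as the root mean square difference between log2 CPM profiles centred on their means, over the 9 skin libraries and 19100 other genes, and the closest were Vsig8 (0.367), the keratin-associated protein genes Krtap17-1 (0.467) and Krtap24-1 (0.473), the inner root sheath gene Tchh (0.509) and Tgm6 (0.516), a transglutaminase gene. Vsig8 had 4 to 17 counts in the 5 nonlesional and WT libraries and 8025 to 16838 in the lesions. Krtap24-1 had 0 counts in those 5 libraries and 1218, 2025, 1840 and 3062 in lesional replicates 4 to 7. Among the S100 genes the closest to S100a3 was S100a7a, at place 130 of the 19100, and S100a9 stood at place 300. Their profiles share the 4 lesional libraries and no shared control follows from the likeness.

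Hair shaft and cuticle keratins were higher in the same libraries as S100a3. Their list was chosen with earlier results of these data known, so nothing is read from the number that passed. All 12 that the tables list passed the test against WT and against nonlesional skin, with median log2 differences of 11.93 and 11.46 (the same with bounds in place of the 4 and 3 fitted values against groups at or below 3 counts), against 0.06 and 0.03 over all genes. Their summed level was 8.17, 7.05 and 9.03 CPM in WT, 7.53 and 11.5 CPM in nonlesional, and 2026, 6202, 4996 and 6400 CPM in lesional replicates 4 to 7, with Krt83 the most abundant per kilobase in lesions and Krt32 in the other groups. The lowest adjusted p-values by edgeR against WT were those of Krt32 (log2 4.83, adjusted p = 3.82e-05) and Krt35 (11.87, adjusted p = 4.92e-05). Krt33b, at least 4914-fold higher, and Krt33a (11.98) came next. Krt33b had at most 3 counts in each WT library and passed the filter through other libraries, so nothing is read from its test. Replicate 4 had the lowest level and replicate 7 the highest both for S100a3 and for the summed hair keratins.

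Regulators of the hair matrix, the dividing cells that build the shaft, were also higher in lesions. Their list was likewise chosen with earlier results known. All 7 passed the test in both comparisons, with a median log2 difference of 4.79 against WT and 3.86 against nonlesional skin. Their sum was 22.5, 16.7 and 20.2 CPM in WT, 31.9 and 31.9 CPM in nonlesional, and 170, 254, 388 and 551 CPM in lesional replicates 4 to 7, and Dlx3 was the most abundant per kilobase. Hoxc13, a homeobox gene that drives hair keratin genes, had a log2 difference of 4.79 (SE 0.34, adjusted p = 6.80e-05), Msx2 of 5.31 (SE 0.53) and Dlx3 of 3.92 (SE 0.45), while Shh, with at most 1 count in WT, was at least 112-fold higher. Against nonlesional skin, where Shh had 8 and 0 counts, the genes with the lowest adjusted p were Hoxc13 (3.86), Msx2 (4.66), Msx1 (3.30) and Shh (6.55). The part of the number or growth state of follicles in the S100a3 difference was not tested.

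The enzymes that modify S100A3 were among the S100 binding partners that rose. Padi3, the deiminase that acts on S100A3 and trichohyalin, measured 0.365, 0.119 and 0.272 CPM in WT, 0.134 and 0.441 CPM in nonlesional, and 93.7, 174, 227 and 342 CPM in lesional replicates 4 to 7. Padi1 had 2, 0 and 3 counts in WT, 0 and 10 in nonlesional and 1835 to 4828 in lesional skin. Padi3 rose by a log2 of 9.68 (SE 0.72, adjusted p = 0.000109 by edgeR) and Padi1 was at least 965-fold higher than WT. Padi1 passed the filter on low counts through the lesional libraries, so nothing is read from its test. Of the 12 binding partner genes these 2 rose and 5 fell against WT, with a median log2 difference of -0.11, and 2 rose and 3 fell against nonlesional skin (median -0.16). Anxa11 (log2 -1.05) and Anxa6 (-1.74), annexins that bind S100 proteins, had the lowest adjusted p among those that fell, and Anxa1 was the most abundant of the list per kilobase, with a log2 difference of 0.26 that did not pass (adjusted p = 0.108).

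The fused-type S100 genes, which join S100 domains to long repeats, rose in lesions for 6 of 7 genes against each of the other skin groups. The median log2 difference was 4.26 against WT and 3.50 against nonlesional skin, unchanged with bounds for the 2 genes at or below 3 counts in WT. Tchh, trichohyalin, measured 6.39, 4.25 and 4.82 CPM in WT, 6.42 and 13.8 CPM in nonlesional, and 2259, 3974, 4768 and 6430 CPM in lesional replicates 4 to 7, a log2 difference of 9.72 (SE 0.58). Per kilobase it was the most abundant of the list in lesional skin, and Flg2 was in WT and nonlesional skin. Flg, filaggrin, ran the other way among the lesions, at 1249, 720, 586 and 356 CPM in replicates 4 to 7 against 34.7 to 43.5 CPM in WT (log2 4.26, SE 0.43). Tchhl1 was at least 2114-fold and Crnn, cornulin, at least 2444-fold higher than WT. Flg2 was the gene that did not pass (log2 -0.50, SE 0.51, adjusted p = 0.453), with 194 to 1093 CPM in lesions and 755 to 1013 CPM in WT.

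**Figure D3:**
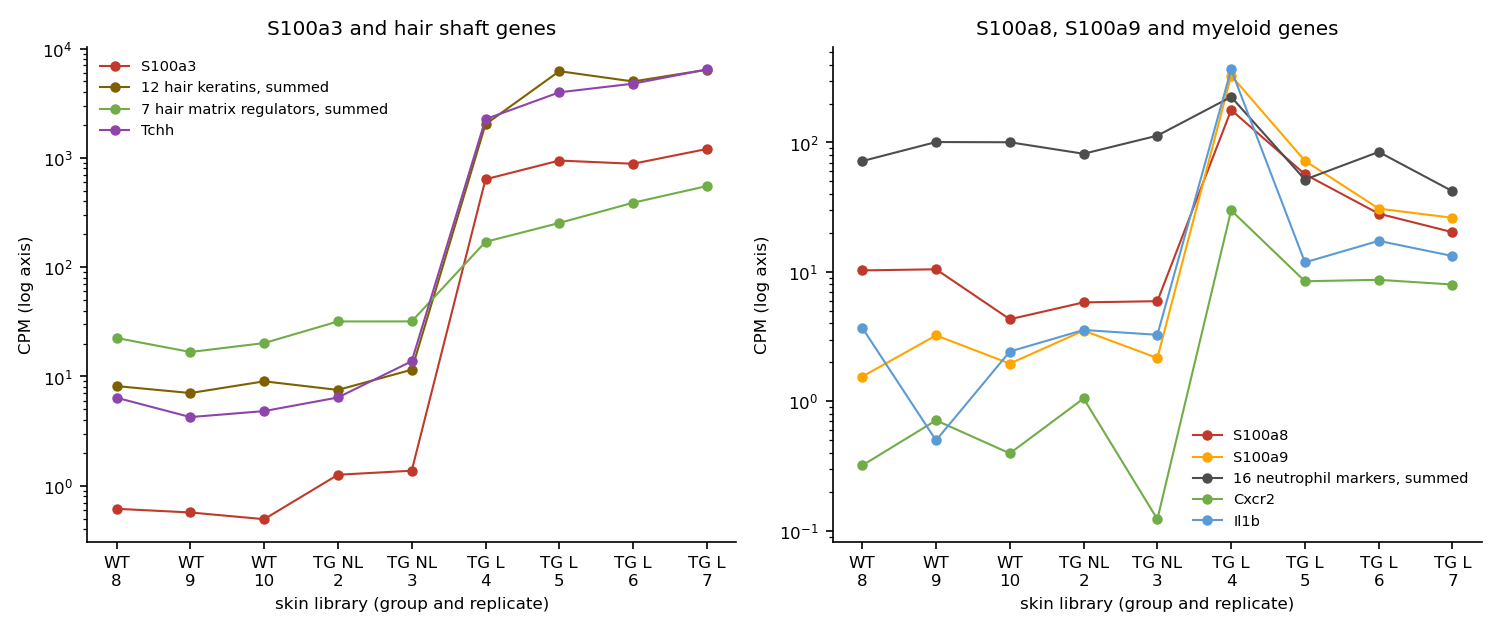
CPM (log axis) in each skin library, named by group and replicate, of S100a3, Tchh and the summed hair keratins and hair matrix regulators (left), and of S100a8, S100a9, Cxcr2, Il1b and the summed neutrophil markers (right); lines join libraries for reading only. The hair genes and S100a3 are high in all 4 lesions and lowest there in replicate 4, while S100a8, S100a9 and Il1b are highest in replicate 4.

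Other alarmins and antimicrobial genes were mostly higher in lesions. Of 15 genes, 11 rose against WT and 7 against nonlesional skin, with median log2 differences of 2.82 and 2.89 (the same with bounds for 3 genes). The IL-36 cytokine genes had the lowest adjusted p by edgeR: Il1f6 (IL-36α) at log2 6.97 (adjusted p = 0.000109), Il1f8 (IL-36β) at 4.25 (adjusted p = 0.000181) and Il1f9 (IL-36γ) at 2.82 (adjusted p = 0.000741), followed by the protease inhibitor gene Slpi at 3.52. Il1f6 measured 39.4, 27.2, 20.2 and 25.9 CPM in lesional replicates 4 to 7, so its lesions differed less than those of S100a9. Il1b, picked after its values were seen, measured 366 CPM in replicate 4 and 11.8, 17.4 and 13.3 CPM in the other lesions, against 0.499 to 3.69 CPM in WT. Hmgb1, the most abundant alarmin of the list per kilobase, measured 275 to 321 CPM in lesions and 201 to 233 CPM in WT.

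Markers of neutrophils, a main source of calprotectin, were read beside S100a8 and S100a9. Of 16 marker genes 14 were tested and 3 rose against WT: Cxcr2 (log2 4.85, SE 0.85, adjusted p = 0.00272), Camp (at least 7.30-fold) and Mpo (log2 2.93, SE 0.76, adjusted p = 0.0137). The same 3 rose against nonlesional skin, and the median of the tested genes was 1.68 and 2.53, the same with bounds for 2 genes. Over all genes 23.0% were called higher against WT and 13.2% against nonlesional skin, so nothing is read from these counts. The summed level was 71.8, 101 and 100 CPM in WT, 81.8 and 113 CPM in nonlesional, and 225, 51.7, 84.5 and 42.0 CPM in lesional replicates 4 to 7, with Il1r2, which keratinocytes also express, the most abundant per kilobase. Only replicate 4 stood above the other skin groups in that sum. Of the defining markers Ly6g had 11, 3, 0 and 1 counts in the lesions and Ngp 1, 0, 0 and 9, and no skin library had more than 11 counts of either. Cxcr2 itself measured 29.9, 8.46, 8.68 and 7.98 CPM in the lesions and 0.319 to 0.712 CPM in WT, and the part of neutrophils in the alarmin difference was not tested.

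Markers of other cell types moved with the groups as well, and their part in the S100 differences was not tested. Among 10 monocyte and macrophage genes Ccr2 rose against WT (log2 1.92), and the sum was 802 to 2020 CPM in WT and 601 to 1762 CPM in lesions, led by Lyz2. All 4 wound keratin genes rose against WT (median log2 4.01), with Krt17 the most abundant per kilobase and sums of 3885, 3646, 5383 and 1757 CPM in lesional replicates 4 to 7, against 469 to 749 CPM in WT and 1212 and 1243 CPM in nonlesional skin. Of 8 suprabasal genes 3 rose against WT (Ivl, Dsc1 and Krt1), and of 6 basal genes Krt14 rose and Krt15 fell, so keratinocyte markers did not move as 1 block. The 10 skeletal muscle genes summed to 34866, 42831 and 48109 CPM in WT, 32622 and 38111 CPM in nonlesional, and 9533, 32.3, 515 and 1908 CPM in lesional skin, and 3 of them fell (Myh1, Actn3 and Acta1, the last the most abundant per kilobase). Of 8 adipocyte genes 3 fell against WT (Plin4, Adipoq and Fabp4), with sums of 8275 to 12113 CPM in WT and 833 to 4480 CPM in lesions, led by Cfd, and of 8 fibroblast genes 2 fell (Dcn and Dpt), with sums of 4936 to 7787 and 3622 to 8274 CPM, led by Dpt. Of 8 T cell genes 4 rose against WT (Trac, Cd4, Cd8b1 and Cd8a), with sums of 37.2 to 42.8 CPM in WT and 33.7 to 84.8 CPM in lesions, led by Cd3g. Fewer of these genes were called against nonlesional skin: 0 muscle, 0 adipocyte and 0 fibroblast genes by edgeR, 1 T cell gene higher (Cd4), 1 suprabasal gene higher (Ivl), 3 wound keratins higher and 3 basal genes lower (Krt15, Col17a1 and Itgb4). Of the 9 dendritic cell genes, those with the lowest adjusted p against WT were Fscn1 (log2 1.93), Ccr7 (2.61) and Xcr1 (2.07), which rose, and Zbtb46 (-0.94), which fell. Fscn1 (2.04), Ccr7 (2.36) and Flt3 (1.44) rose against nonlesional skin. Among 8 stroma genes Ccl19 rose (2.29) and Lyve1 fell (-2.22) against WT, and Ccl19 rose against nonlesional skin (2.59). No gene of these lists was at 0 in every skin library.

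No receptor or signalling gene for S100 proteins was called higher in lesional skin. Of 12 genes, 3 fell against WT, Mcam (log2 -1.65, SE 0.23, adjusted p = 0.000883), Cd36 (-1.79, SE 0.32) and Bsg (-0.42, SE 0.13), and Mcam alone fell against nonlesional skin (-1.31, SE 0.25), while the rest did not pass. The highest log2 difference of the 12 was 0.55 against WT and 1.18 against nonlesional skin. Over all genes 20.2% were called lower against WT and 11.8% against nonlesional skin, so nothing is read from these counts. Cd36, a scavenger receptor that endothelial cells and adipocytes express, was the most abundant of the list per kilobase in WT and nonlesional skin, with Bsg ahead in lesions, and measured 1029 to 1775 CPM in WT, 757 and 877 CPM in nonlesional and 217 to 569 CPM in lesional skin. Ager, encoding RAGE and named here for its role after its values were seen, had 5 to 16 counts in every skin library, with a log2 difference of -0.31 (SE 0.57). Tlr4, named for the same reason, measured 24.4 to 33.0 CPM in WT and 6.02 to 22.2 CPM in lesions.

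Of the other 8 S100 genes in the tables, 4 passed the filter on low counts in skin. Among these, S100a7l2, a gene named for its likeness to S100a7, was called higher in lesions, with 0, 1 and 1 counts in WT, 0 and 0 in nonlesional and 47, 213, 12 and 24 in lesional replicates 4 to 7, at least 23.9-fold above WT and at least 26.0-fold above nonlesional skin. Replicate 5 carries most of these bounds, at 5.25 CPM against 0.264 to 0.856 CPM in the other lesions. S100a1, the most abundant of the list per kilobase, measured 71.5 to 81.7 CPM in WT and 55.6 to 95.8 CPM in lesions, and S100a13 and S100b were likewise not called. S100z had 0 counts in every library of both tissues and S100a5 stayed at or below the floor.

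Neighbours on the chromosome did not share a common size of difference. S100a3 and S100a4 lie 1.07 kb apart with log2 differences of 10.67 and 0.36 in lesional against WT skin, and S100a6 follows at 0.76. S100a7a, S100a8 and S100a9, further along, stood at 7.86, 3.09 and 5.67, and S100a11 and S100a10 in the second block at 0.01 and -0.11. None of the 6 other genes inside the first block, or of the 1 inside the second, passed the filter on low counts. Between the blocks lie 102 other genes, the epidermal differentiation genes among them, of which 62 were tested. Of these, 51 rose and the rest did not pass against WT, with a median log2 difference of 3.24 against 0.06 over all genes, and 40 rose and 1 fell against nonlesional skin (median 2.13). Those with the lowest adjusted p were Tchh, Sprr1a (log2 3.60), Prr9 (9.30) and Lce1g (5.12) against WT, the second and the last encoding cornified envelope proteins. In nonlesional against WT skin 0 of the 62 were called by edgeR, with a median of 0.96.

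**Figure D4:**
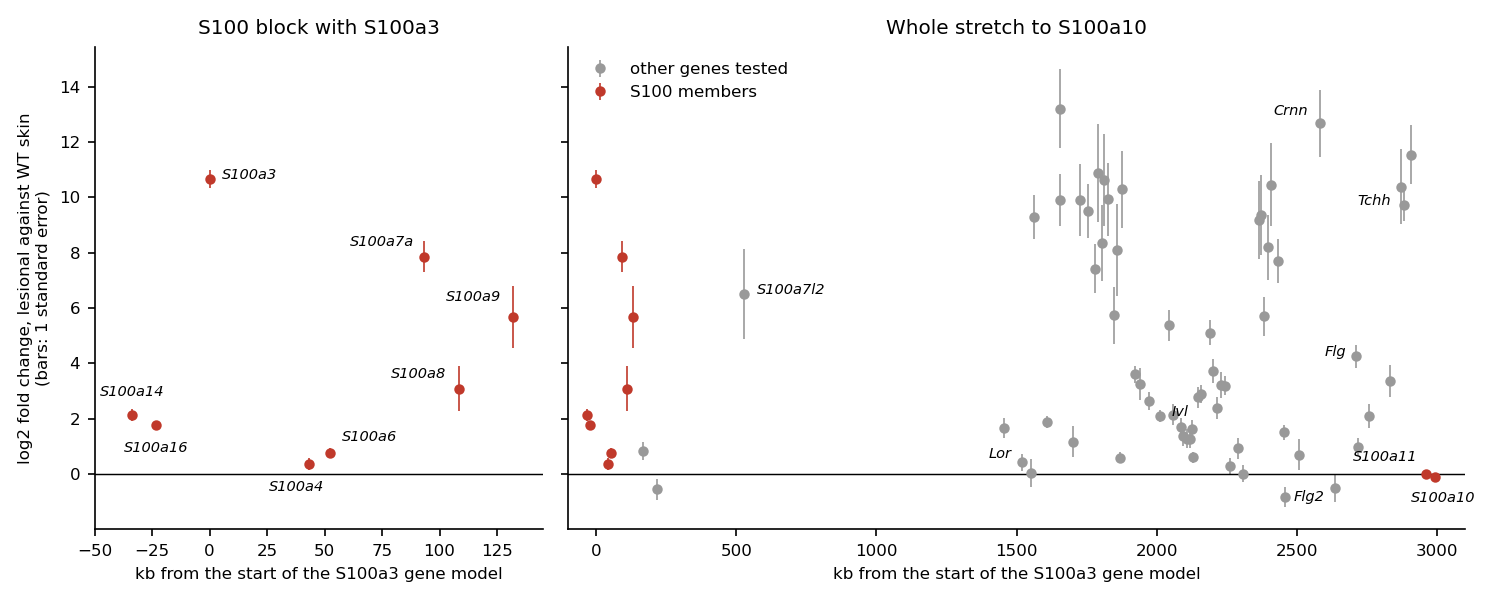
Log2 fold change of lesional against WT skin (vertical axis, bars 1 standard error) for genes tested along chromosome 3, against distance in kb from the start of the S100a3 gene model, for the S100 block with S100a3 (left) and the whole stretch to S100a10 (right); the 10 S100 genes are red and other genes grey. S100a3 at 10.67 lies next to S100a4 at 0.36, and most of the grey genes between the blocks lie above 0.

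The genes with a profile most like that of S100a8 in skin included a pair known from the epidermis, Slurp1 and Klk8. The 5 closest over the 9 libraries were Gm9696 (0.585), Slurp1 (0.587), Gm8080 (0.618), Klk8 (0.625) and Gm28809 (0.628). Slurp1, a secreted epidermal protein gene, measured 73.8, 46.9, 26.0 and 15.4 CPM in lesional replicates 4 to 7 and 3.89 to 4.54 CPM in WT. Klk8, an epidermal protease gene, measured 239, 126, 101 and 69.1 CPM in the same lesions and 17.4 to 25.5 CPM in WT. Gm8080 and Gm28809 reached at most 22 and 25 counts, so their profiles rest on few reads. Among the S100 genes S100a14 was the closest to S100a8 (place 154), with S100a16 at place 537 and S100a9 at place 590.

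In the lymph nodes, the S100 levels were lower and the order differed. Here 7 of the 10 genes were tested, and S100a3 (1 to 13 counts per library), S100a7a (0 or 1) and S100a14 (0 to 12) did not pass the filter. In untreated WT nodes S100a11 led at 119 ± 6.55 CPM per kb, followed by S100a10 (94.5 ± 14.1), S100a4 (24.4 ± 3.42) and S100a6 (8.96 ± 0.210), all separated. S100a9 (2.72 ± 2.14), S100a8 (0.921 ± 0.496) and S100a16 (0.489 ± 0.135) each overlapped the next in that order. The summed level of the 10 genes was 159 to 231 CPM over all 12 node libraries.

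The response to UVB in WT nodes asks what irradiated skin does to its draining node, and edgeR called no S100 gene in it. By edgeR 805 of 16173 genes were called (4.98%), of the S100 genes 0 of 7, with 2 at an unadjusted p under 0.05 and 1 called by DESeq2. S100a9 measured 0.392, 1.25 and 2.61 CPM without UVB and 0.420, 0.254 and 0.0306 CPM after it, a log2 difference of -2.57 (SE 0.95, adjusted p = 0.122). S100a16 measured 0.543, 0.878 and 0.952 CPM without UVB and 0.390, 0.109 and 0.184 CPM after it, a log2 difference of -1.75 (SE 0.55, adjusted p = 0.0748). S100a8 measured 0.241, 0.847 and 0.83 CPM without and 0.150, 0.400 and 0.184 CPM after UVB, so the groups overlapped (log2 -1.40, SE 0.96, adjusted p = 0.379). Most of these values rest on fewer than 30 counts. Over single libraries left out, S100a9 ran from -3.34 (without irradiated WT replicate 7) to -1.81 (without untreated WT replicate 3). S100a16 ran from -2.38 (without irradiated WT replicate 7) to -1.45 (without irradiated WT replicate 8). S100a10 (log2 -0.21), S100a11 (-0.25), S100a6 (-0.11) and S100a4 (0.00) had smaller differences, and S100a4 and S100a6 changed sign when single libraries were left out. All irradiated libraries lay below the others for 3 of the 7, S100a10, S100a11 and S100a16, and this held for 17.3% of all genes tested. DESeq2 called S100a9, and S100a16 was called when the 2 groups were fitted alone. The number of genes called in this comparison fell to 0 without irradiated WT replicate 8.

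In TG nodes, UVB gave no called gene by edgeR (0% of 16173 genes, 1507 at an unadjusted p under 0.05, 137 called by DESeq2). S100a8 measured 1.14, 1.70 and 1.33 CPM in untreated TG nodes and 0.233, 0.139 and 2.57 CPM in irradiated TG replicates 10, 11 and 12. S100a9 measured 1.95, 3.15 and 3.05 CPM in untreated and 0.436, 1.01 and 3.70 CPM in irradiated TG nodes. For both genes replicate 12 lay above the untreated libraries and replicates 10 and 11 below them, and the log2 differences were -0.49 (SE 0.82) and -0.66 (SE 0.79). Without replicate 12, S100a8 was called lower after UVB, so 1 library decides that call. S100a4 was lower after UVB without passing the test (log2 -0.56, SE 0.27, adjusted p = 0.552), and its highest value, 30.2 CPM, was in untreated replicate 5.

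Between genotypes, no S100 gene was called in nodes. Without UVB edgeR called 0% of genes (549 at an unadjusted p under 0.05, 2 called by DESeq2), and 0 of the 7 S100 genes by either tool, with 0 at an unadjusted p under 0.05. The log2 difference of S100a8 was 1.12 (SE 0.85, adjusted p = 1). After UVB edgeR called 0% of genes (1131 at an unadjusted p under 0.05, 19 called by DESeq2) and 0 of the 7 S100 genes, with 2 at an unadjusted p under 0.05 and 0 called by DESeq2. The largest S100 difference there was that of S100a9, log2 2.85 (SE 0.95, adjusted p = 0.673), followed by S100a8 at 2.02 (SE 0.95, adjusted p = 0.715) and S100a16 at 1.54 (SE 0.55, adjusted p = 0.673). Single libraries carry much of these values: without irradiated TG replicate 12 the log2 difference was 1.59 for S100a9 and -0.34, in the other direction, for S100a8, and without replicate 11, the library with kidney genes, it was 0.86 for S100a16. The difference between the genotypes in their response to UVB was tested as an interaction, in which edgeR called 0% of genes (881 at an unadjusted p under 0.05, 8 called by DESeq2) and 0 of 7 S100 genes by either tool. Its S100a9 value was 1.91 (SE 1.23, adjusted p = 0.848) and its S100a16 value 1.24 (SE 0.73, adjusted p = 0.848).

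**Figure D5:**
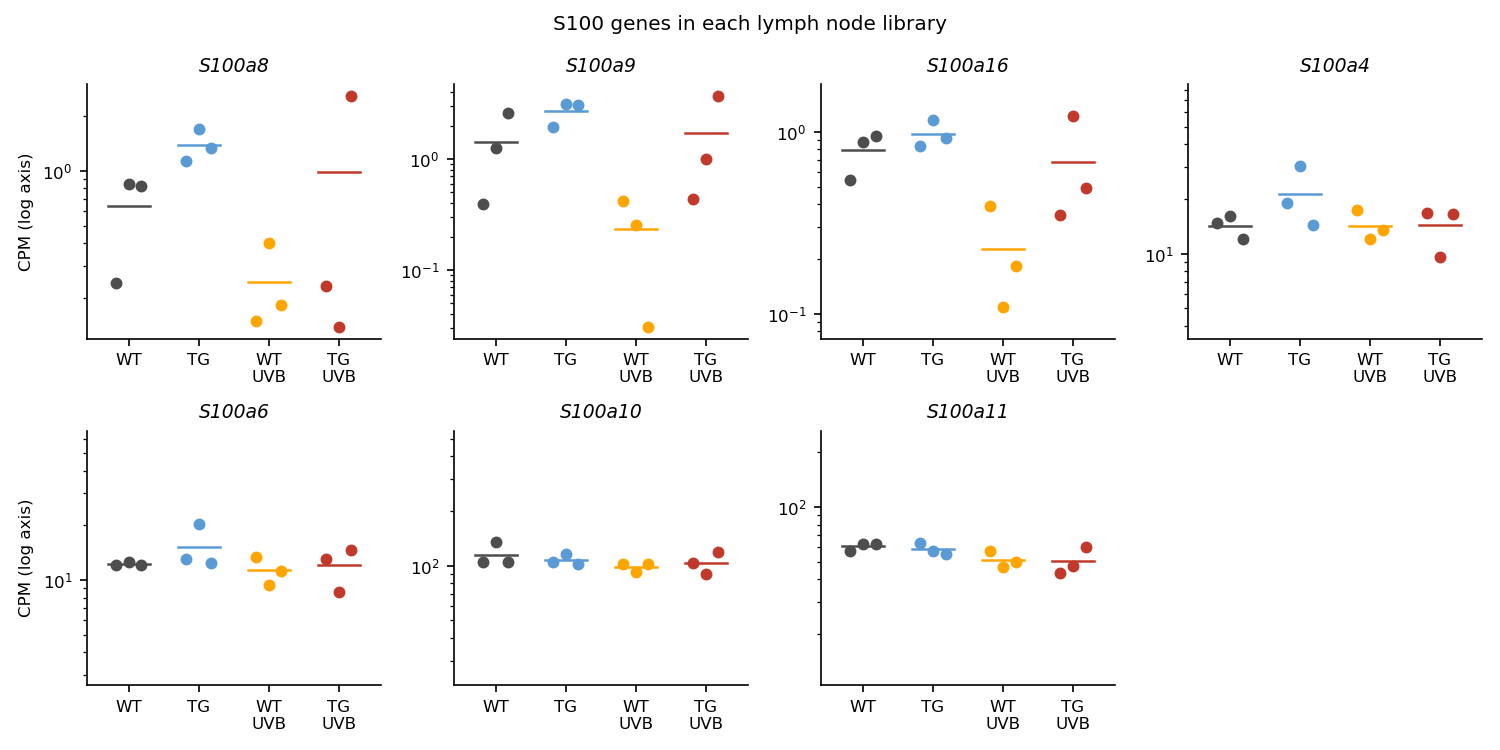
CPM (log axis) of the 7 S100 genes tested in lymph nodes, by group (WT and TG, untreated or after UVB, 3 libraries each); points are libraries and lines are group means. S100a8 and S100a9 lie under 4 CPM throughout and are highest after UVB in 1 TG library, while S100a10 and S100a11 stay within 90.4 to 134 CPM and 43.2 to 63.5 CPM.

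Neutrophil markers were sparse in the nodes, where 7 of 16 were tested and the rest did not pass the filter. Their sum ran from 5.74 to 18.4 CPM, with Cxcr2 the most abundant per kilobase in untreated nodes and Il1r2 after UVB, and with Ly6g and Prtn3 at or below 3 counts in every library. Irradiated TG replicate 12 had 17.3 CPM and replicates 10 and 11 had 6.31 and 5.74 CPM, the order also seen for S100a8. The genes closest to S100a8 over the 12 node libraries were Mmp9 (0.627), Nr5a2 (0.635), 9430060I03Rik (0.681), Cd300lb (0.691) and Draxin (0.711), of which Mmp9, a gelatinase of neutrophils, had 70 counts in replicate 12 and 9 and 7 in replicates 10 and 11. The part of neutrophils in these values was not tested.

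Among the S100 receptors in nodes, Ager rose after UVB in WT mice. It measured 0.724, 0.909 and 0.461 CPM without UVB and 2.7, 3.67 and 2.33 CPM after it (log2 2.05, SE 0.45, adjusted p = 0.0318 by edgeR), and the other 11 receptor genes did not pass, with a median log2 difference of -0.09 over the 12. Bsg was the most abundant of the list per kilobase. Of 10 binding partners tested, Cacybp, which binds S100A6, rose (log2 1.09, SE 0.27, adjusted p = 0.0456), and Anxa6 (-0.37, SE 0.09, adjusted p = 0.0381), the most abundant per kilobase without UVB (Myh9 after it), and Anxa1 (-0.65, SE 0.17, adjusted p = 0.0492) fell. These calls share the dependence of the comparison on irradiated WT replicate 8, without which 0 genes were called. Cacybp measured 276 CPM in that library and 127 and 149 CPM in the other irradiated WT nodes, against 78.9 to 97.2 CPM without UVB. Stroma markers summed to 83.1 to 103 CPM in WT nodes without UVB and to 61.3, 25.5 and 25.6 CPM after it, with Ccl21a the most abundant and Glycam1 (log2 -1.34, adjusted p = 0.0254) the gene that fell. In the same comparison 1 of 8 fibroblast genes fell, Lum (log2 -2.14, adjusted p = 0.0477), with a list median of -1.37, and of 2 adipocyte genes tested Fabp4 fell (log2 -3.09, adjusted p = 0.0319). Of the dendritic cell genes Ccr7 fell (log2 -0.43, adjusted p = 0.0261 by edgeR). The part of these cells in the node values of the S100 genes was not tested. Over all genes tested for UVB in WT nodes, 2.92% were called higher and 2.06% lower. Nothing is read from the counts of called list genes.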

How the data were processed

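The estimated counts per gene used here were deposited by the authors, who trimmed reads with cutadapt 4.8, checked them with FastQC 0.11.8 and MultiQC 1.20, aligned them with STAR 2.7.8a to GRCm38 and counted with RSEM 1.3.3; the annotation release is not given in the sources used. Counts were rounded to whole numbers. Low-count genes were removed with filterByExpr, leaving 19101 genes in skin and 16173 in nodes. Library sizes were normalised with TMM, and each tissue was fitted by group with edgeR 4.0.16's robust quasi-likelihood F-test (limma 3.58.1, R 4.3.3) at a Benjamini-Hochberg false discovery rate of 0.05. DESeq2 1.42.0 was run beside it. Each standard error (SE) of an edgeR log2 difference is that difference, without its sign, divided by the square root of its F statistic. Fitted log2 differences use edgeR's default prior count, and the log2 CPM profiles used for likeness use a prior count of 2. Where every library of the lower group had at most 3 counts, folds are given as at least a value, with 3 counts put in place of each lower count. Such a gene passed the filter through other groups, and nothing is read from its test.

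Other settings tried were RLE and upper-quartile factors, no filter, the compared groups alone, and leaving out each library. Gene positions and exon lengths are from GENCODE M21 and promoters from RefSeq. The S100 genes and the marker lists were chosen with earlier results of these data known. Genes are named by rule: all 10 S100 genes; per list and comparison, up to 4 with the lowest adjusted p among those that passed, the most abundant per kilobase and those at 0; the 5 genes most like S100a3 and S100a8; and up to 4 neighbours. Some results that this rule would name are not reported here. Others named are stated as picked after their values were seen. Krt85 was not found in the tables, Il36a, Il36b and Il36g were matched as Il1f6, Il1f8 and Il1f9, and for Ccl19 and Ccl21a, each on 2 entries, the entry with the most counts was used. No libraries were identical. The code was tried on simulated counts with known differences before use.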

Additional observations from a re-analysis of the deposited data

Results flagged for a closer look

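In lesional TG skin S100a9 in replicate 4, at 329 CPM, stood apart from the other 3 lesional libraries: the gap to the next library was 0.848 of the whole range, past the limit that Dixon's test sets at 95% for 4 samples. The 10 S100 genes were looked at in this way and 1 stood out, where chance alone gives about 1 in 20. Only the lesional group, with 4 libraries, was examined. For the interaction of genotype and UVB in nodes, 0 of 7 S100 genes were called by edgeR (0 at an unadjusted p under 0.05, 0 by DESeq2).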

How the results depend on the processing

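No paired analysis was possible because the replicate numbers run through each tissue and the compared groups share none, so no label joins libraries of the same mouse.

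For lesional against WT skin, leaving out single libraries gave 6243 to 8028 called genes and 6 to 7 called S100 genes. The call lost was that of S100a8, without WT replicate 10, and S100a8 also lost its call with no filter. The S100a3 log2 difference ran from 10.51 to 10.81 over all settings. S100a9 was 4.26 without lesional replicate 4, and S100a11 ran from -0.11 to 0.12 over single libraries left out.

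Lesional against nonlesional TG skin rests on nonlesional replicates 2 and 3. Called genes fell from 4782 to 3156 with the compared groups alone, and over single libraries left out ran from 1182 (without replicate 3) to 5187, with 1470 without replicate 2. Called S100 genes were 4 with the compared groups alone, 3 without replicate 2 and 4 without replicate 3, with a range of 3 to 7. With no filter 5 S100 genes were called, and S100a8 and S100a9 lost their calls. S100a7a was 8.79 without nonlesional replicate 2. Without lesional replicate 4, S100a8 was 2.58 and S100a9 was 3.92.

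For nonlesional TG against WT skin, 80 genes were called by DESeq2, 1 with the compared groups alone and 0 to 0 over single libraries left out. The sign of 4 S100 genes changed. S100a10 (0.01) was -0.0154 with RLE factors, -0.0139 with upper-quartile factors, -0.0161 with no filter and -0.0154 by DESeq2, and ran from -0.13 to 0.12 over single libraries left out. S100a6 ran from -0.013 to 0.14, S100a7a from -0.93 to 0.97 and S100a9 from -0.0558 to 0.69, the lowest of the last 2 without nonlesional replicate 2.

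For UVB in WT nodes, called genes (805) were 2002 by DESeq2 and 2431 with the compared groups alone, and over single libraries left out ran from 0 (without irradiated WT replicate 8) to 2644 (without irradiated TG replicate 12), with 7 without untreated WT replicate 3. Called S100 genes were 1 by DESeq2 (S100a9), 1 with the compared groups alone (S100a16) and 0 to 2 over single libraries left out, S100a16 without irradiated TG replicate 10 or 12 and S100a9 without replicate 12. Their values were -2.60 for S100a9 by DESeq2 and -1.75 for S100a16 with the compared groups alone. S100a4 (0.00) was -0.005 with RLE factors, -0.0206 with upper-quartile factors, -0.0056 by DESeq2 and -0.0013 with the compared groups alone, and ran from -0.16 to 0.11 over single libraries left out. S100a6 ran from -0.25 to 0.0116.

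For UVB in TG nodes, DESeq2 called 137 genes, and single libraries left out gave 0 to 236 genes and 0 to 1 S100 genes, S100a8, with the highest values without irradiated TG replicate 12. For TG against WT without UVB, DESeq2 called 2 genes and single libraries left out gave 0 to 1 (without untreated WT replicate 3). After UVB, 1 gene was called with no filter, 19 by DESeq2 and 0 to 2 over single libraries left out (2 without irradiated TG replicate 10). For the interaction, DESeq2 called 8 genes and single libraries left out gave 0 to 1 (without untreated WT replicate 3). The cause of these shifts was not tested.

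The groups hold 2 to 4 libraries, and leaving out 1 nonlesional library leaves no spread in that group. S100a8, S100a9 and S100a16 in nodes rest on 1 to 121 counts per library, and S100a3, S100a7a and S100a14 there on 0 to 13 and did not pass the filter. In lesional skin each S100 gene had 893 counts or more per library. Sex, mouse and body site are not labelled, and all libraries carry 1 batch label, and none of these is in the fit.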

Other observations

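Type I interferon response genes, 12 in all, were read beside the S100 genes because the transgene encodes an interferon. In skin they summed to 279, 236 and 184 CPM in WT replicates 8 to 10, 143 and 237 CPM in nonlesional TG replicates 2 and 3, and 744, 339, 897 and 281 CPM in lesional replicates 4 to 7, with Isg15 the most abundant per kilobase. Isg15 (log2 2.51), Oas1a (1.71) and Cxcl10 (4.75) rose in lesions against WT, and the same genes rose against nonlesional skin. The lesions with the highest sums, replicates 6 and 4, were not those with the most S100a3, replicates 7 and 5. In nodes the sum ran from 750 to 2011 CPM, with 1865 CPM in untreated WT replicate 2 and 2011 CPM in irradiated TG replicate 11.

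Sex is not in the labels. The skin libraries had 0 or 1 counts in all over 4 Y-linked genes, and Xist measured 78.9 to 179 CPM in 7 of them but 0.319 CPM in nonlesional replicate 3 and 0.132 CPM in lesional replicate 6. The node libraries had 5134 to 15594 counts of the Y-linked genes and at most 1.46 CPM of Xist. S100a3 in the 2 skin libraries with little Xist measured 1.37 CPM (nonlesional replicate 3) and 883 CPM (lesional replicate 6). These 2 libraries are in different groups, and whether S100a3 differs with Xist was not tested.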
